A study of Mus musculus with 6 samples.

Results

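The Hox genes measured here were 35 of the 19505 genes on the array, taken as every gene whose symbol in the platform annotation starts with Hoxa, Hoxb, Hoxc or Hoxd followed by a digit. They comprised 33 protein-coding genes (8 of cluster A, 9 of cluster B, 9 of cluster C and 7 of cluster D) and 2 antisense RNA genes, Hoxa11os and Hoxd3os1. RefSeq lists 39 protein-coding Hox genes for the mouse, and the other 6 were not analysed here. Each of the 35 genes had 1 probe set, so no choice between probe sets was needed.

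The arrays compared 3 shRras2 samples (numbered 4 to 6 in the labels) with 3 pLKO samples (numbered 1 to 3), 1 array each. All samples were mouse fibrosarcoma cells of strain C57BL/6 that carry Rras2(Q72L), a mutant form of the RAS-related GTPase R-Ras2, and all were transduced with a lentiviral vector. Every sample title names the same cells, FS2, so the values describe those cells and not fibrosarcomas in general. The shRras2 samples received a single shRNA against Rras2 (sh#89) and the pLKO samples the vector control, so effects of that shRNA on other targets and effects of less Rras2 cannot be told apart. Whether samples of 1 group were grown or transduced separately is not stated, so the spread behind each p-value may be technical only. The numbering does not overlap between the groups, so any batch that follows it cannot be told apart from the group. Values are log2 signals made by the authors with RMA, and differences are shRras2 minus pLKO on that log2 scale.

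Hox genes encode homeodomain transcription factors and lie in 4 clusters on separate chromosomes. Within a cluster, the genes with low paralog numbers are switched on early and towards the head of the embryo, and those with high numbers later and towards the tail and the tips of the limbs. Fibroblasts of the adult body keep part of the Hox pattern of the site they came from, which is why the set of expressed Hox genes is read as a record of position. PBX and MEIS proteins bind DNA together with HOX proteins, Polycomb and Trithorax complexes keep Hox genes off or on, and retinoic acid induces Hox genes in the embryo, the low-numbered ones above all.

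Hox promoter sequences were searched for letters bound by retinoic acid receptors, because the retinoic acid pathway held genes that differed between the groups. Whether retinoic acid acts on Hox genes in these cells was not tested. RefSeq windows of GRCm38.p6, from 250 bases before to 50 bases after a transcription start, were at hand for 19 of the 35 genes (21 windows). The letters AGGTCA, the half-site bound by retinoic acid receptors, were searched on both strands and occurred in 4 of the 21 windows (19.0%), against 16.3% of all 32851 windows. Those 4 windows belong to Hoxa5, Hoxc4, Hoxd8 and Hoxd10. The windows of Hoxa5, Hoxc4 and Hoxd8, whose signals were above background, are shown with the half-site in capitals. They lie at chr6:52204538-52204837 on the minus strand (Hoxa5), chr15:103034145-103034444 on the plus strand (Hoxc4) and chr2:74704365-74704664 on the plus strand (Hoxd8), each written 5′ to 3′ along the gene. In Hoxc4 the half-site is on the opposite strand and reads TGACCT.
Hoxa5: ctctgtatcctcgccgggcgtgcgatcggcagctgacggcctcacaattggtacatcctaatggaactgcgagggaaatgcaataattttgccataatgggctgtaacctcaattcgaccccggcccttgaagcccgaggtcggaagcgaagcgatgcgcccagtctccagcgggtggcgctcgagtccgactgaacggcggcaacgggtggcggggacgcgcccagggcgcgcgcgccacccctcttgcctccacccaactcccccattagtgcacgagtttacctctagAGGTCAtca
Hoxc4: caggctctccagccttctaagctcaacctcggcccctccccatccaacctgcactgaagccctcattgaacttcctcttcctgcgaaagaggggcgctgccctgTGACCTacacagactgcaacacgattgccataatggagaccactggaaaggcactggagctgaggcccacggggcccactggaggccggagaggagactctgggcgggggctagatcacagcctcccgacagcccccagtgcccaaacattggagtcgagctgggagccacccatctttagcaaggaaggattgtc
Hoxd8: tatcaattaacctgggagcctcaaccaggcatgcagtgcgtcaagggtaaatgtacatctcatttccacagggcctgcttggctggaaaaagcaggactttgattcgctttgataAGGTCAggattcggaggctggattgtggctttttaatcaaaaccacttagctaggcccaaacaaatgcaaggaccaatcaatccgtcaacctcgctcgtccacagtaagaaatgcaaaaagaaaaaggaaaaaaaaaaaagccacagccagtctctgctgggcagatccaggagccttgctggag
Both windows of Hoxa10, the fourth gene above background that had a window, lack these letters. The match describes the letters of these windows, and a match is not evidence of a bound site.

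Hox windows were rich in CpG. Their median was 20 CpG (4 to 45), against 7 in all windows, and their median GC content was 60.3% (42.3 to 81.0), against 52.7%. The 3 windows shown differed widely among themselves. Hoxa5 held 29 CpG at 61.7% GC, Hoxc4 held 9 at 60.3%, and Hoxd8 held 6 at 46.7%. Of the other motifs searched on both strands, the paired HOX-PBX letters TGATNNAT were in 4 Hox windows (19.0%, against 8.85% of all windows), those of Hoxa2, Hoxb1, Hoxb8 and Hoxd11. The TATA letters TATAAA were in 4 (19.0%, against 13.6%) and the CDX letters TTTATG in 2 (9.52%, against 11.9%), those of Hoxb8 and Hoxd11.

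Rras2 itself checked the labels. Its signal was 9.09, 9.69 and 9.21 on the shRras2 arrays, against 10.67, 10.75 and 10.82 on the pLKO arrays. The groups did not overlap, and Rras2 fell by 1.41 ± 0.14 (SE) on the log2 scale (limma, adjusted p = 0.00163), which leaves 37.6% of the pLKO signal (95% interval 29.9 to 47.2). Arrays correlated at 0.9941 to 0.9966 within a group and at 0.9884 to 0.9931 between groups, and array medians lay between 7.22 and 7.28. Across all genes 1017 passed an adjusted p of 0.05, or 5.21%, with 584 higher (2.99%) and 433 lower (2.22%) in shRras2. Leaving out pLKO replicate 1, 2 or 3 or shRras2 replicate 4 or 6 left 392 to 589 calls, and leaving out shRras2 replicate 5 gave 1136. With all 6 arrays, higher calls made up 57.4% of the 1017, but 47.2% (506 higher and 567 lower) after each array was centred on its median. The labelled cell type was checked against marker lists chosen, like the other lists, with earlier results of these data known. Of 12 measured fibroblast and mesenchymal markers 7 were above background in each group, where 41.7% of all genes were. None of 9 epithelial, 5 immune and 6 endothelial markers was. Of 13 skeletal muscle markers 8 were above background in shRras2 and 0 in pLKO.

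A gene was counted as above background in a group when its mean was over 7.92, the 95th percentile of the 5222 negative-control probe sets over the 6 arrays. By that measure 9 Hox genes were above background in shRras2 and 8 in pLKO, of 35, where 41.7% of all genes were above it. They were Hoxa5 and Hoxa10 in cluster A, Hoxb7 in cluster B, Hoxc4, Hoxc5, Hoxc6, Hoxc8 and Hoxc9 in cluster C, and Hoxd8 in cluster D. Hoxa5 was above it in shRras2 only, with group means of 8.02 in shRras2 and 7.78 in pLKO, and the difference did not pass the test. All 9 came from paralog numbers 4 to 10. Of the central paralogs (4 to 8) 7 of 12 were above background, of the anterior ones (1 to 3) 0 of 6, and of the posterior ones (9 to 13) 2 of 15, the antisense RNA genes not counted here. Single arrays had 10, 8 and 9 Hox genes above background in shRras2, against 8, 8 and 9 in pLKO. A signal under the background level does not show that a gene is silent, and the RNA was from a bulk culture, in which fewer cells expressing a gene and less RNA per cell cannot be told apart.

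**Figure D1:**
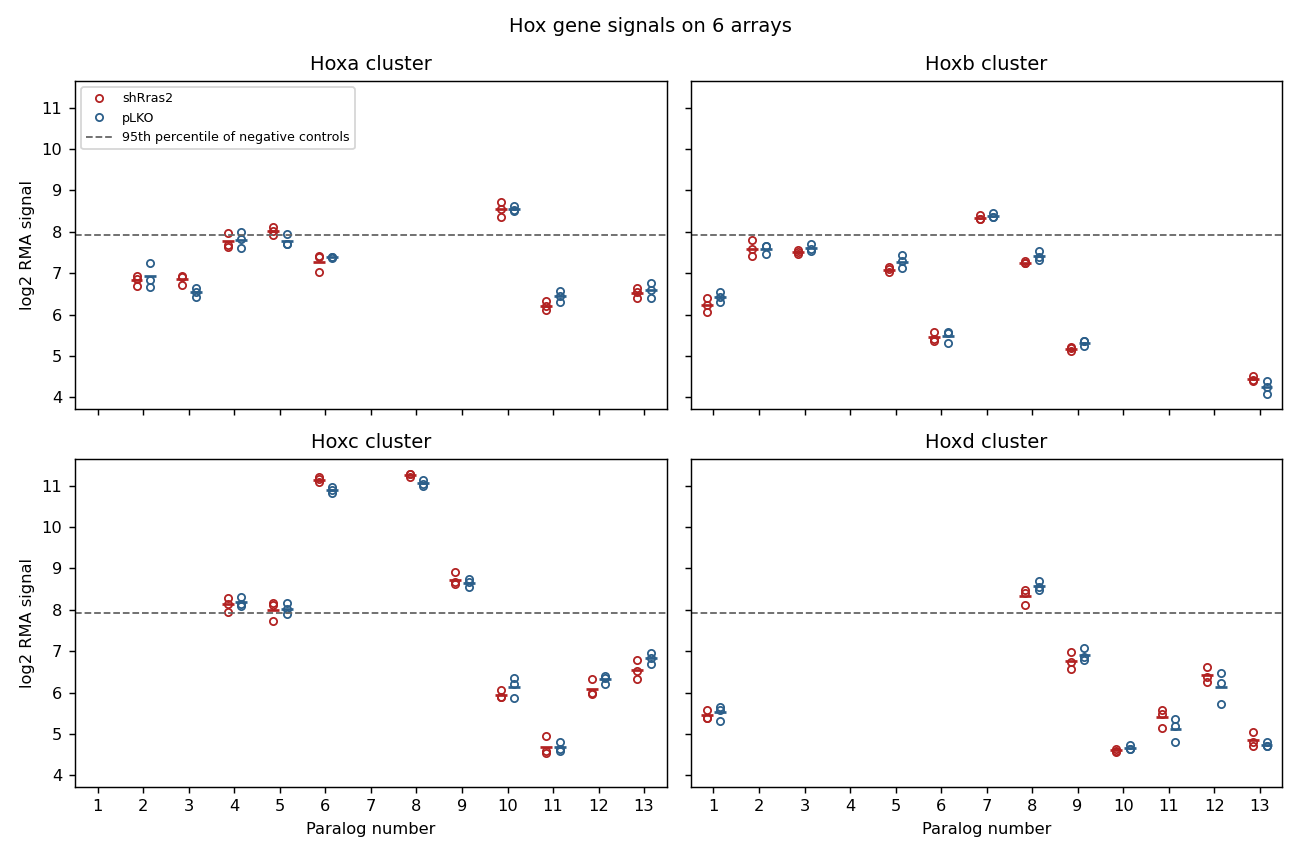
Log2 RMA signal of the 33 protein-coding Hox genes on every array, with bars at the group means, by cluster and paralog number, with shRras2 arrays left of pLKO arrays and a line at the background level of 7.92. Hoxc6 and Hoxc8 stood near 11 in both groups, and the anterior genes and those numbered above 10 lay under the line. Hoxa10, Hoxb7, Hoxc4, Hoxc9 and Hoxd8 were also above the line on all 6 arrays.

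The members nearest the level were Hoxa5 and Hoxc5 (8.0 in shRras2 and 8.03 in pLKO) just above it, and Hoxa4 (7.77 in shRras2 and 7.81 in pLKO), Hoxb2 (7.59 in shRras2 and 7.60 in pLKO) and Hoxb3 (7.51 in shRras2 and 7.61 in pLKO) below it. The count depended on where the level was set. Over the 99th percentile of the negative controls (9.99) only Hoxc6 and Hoxc8 remained. The 23 background probe sets of the array, grouped by GC content, had means of 3.37 to 8.52. Hoxc6, Hoxc8, Hoxc9 and Hoxa10 were above the highest of these in both groups and Hoxd8 in pLKO only, a level chosen after the data were seen.

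Cluster C held Hoxc6 and Hoxc8, which pattern the thoracic region of the embryo and were the Hox genes above the 99th percentile of the negative controls. Hoxc6 had signals of 11.16, 11.08 and 11.21 in shRras2, against 10.97, 10.81 and 10.90 in pLKO. All 3 shRras2 arrays were above all 3 pLKO arrays. The difference of 0.25 ± 0.08 (95% interval 0.07 to 0.44, a fold of 1.19) did not pass in limma over all genes (adjusted p = 0.127). With a trended and robust prior in limma it did pass (adjusted p = 0.0160). Hoxc8 had signals of 11.28, 11.20 and 11.27 in shRras2, against 11.14, 10.99 and 11.05 in pLKO. These groups did not overlap either, and the difference of 0.19 ± 0.08 (95% interval 0.01 to 0.37) had an adjusted p of 0.232 in limma.

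Their neighbours in cluster C overlapped between the groups. Hoxc9, which sets thoracic motor neuron identity in the spinal cord, had signals of 8.62, 8.66 and 8.91 in shRras2, against 8.56, 8.75 and 8.66 in pLKO, a difference of 0.08 ± 0.10. Hoxc4, the lowest-numbered gene of cluster C, had 8.15, 7.95 and 8.29 in shRras2, against 8.31, 8.09 and 8.15 in pLKO, a difference of -0.05 ± 0.11. Hoxc5 had 8.11, 7.73 and 8.16 in shRras2, against 8.02, 8.17 and 7.91 in pLKO, a difference of -0.03 ± 0.13. Hoxc5 was under the background level on shRras2 replicate 5 and on pLKO replicate 3, and above it on the other 4 arrays.

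In cluster A, Hoxa5, which is needed for lung and lower neck development, had signals of 8.03, 8.11 and 7.92 in shRras2, against 7.71, 7.70 and 7.94 in pLKO. One pLKO array lay among the shRras2 arrays, and the difference of 0.23 ± 0.10 (95% interval 0.02 to 0.45) had an adjusted p of 0.223 in limma. Hoxa10, a gene of lumbar vertebrae and uterus, had 8.35, 8.56 and 8.72 in shRras2, against 8.63, 8.53 and 8.49 in pLKO. The difference was -0.01 ± 0.10, with a 95% interval of -0.25 to 0.23.

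Hoxb7 was the member of cluster B above background, with signals of 8.41, 8.31 and 8.31 in shRras2, against 8.35, 8.36 and 8.46 in pLKO. The groups overlapped, with a difference of -0.05 ± 0.08 (95% interval -0.23 to 0.13). In cluster D, Hoxd8 had signals of 8.48, 8.12 and 8.40 in shRras2, against 8.54, 8.49 and 8.69 in pLKO. All shRras2 arrays were below all pLKO arrays, and the difference of -0.24 ± 0.11 (95% interval -0.49 to 0.00) had an adjusted p of 0.267 in limma.

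Larger differences were found among members below background, where signals are compressed. Hoxa3, which acts in the pharyngeal arches, thymus and parathyroid, had 6.93, 6.71 and 6.91 in shRras2, against 6.43, 6.65 and 6.55 in pLKO. The groups did not overlap, and the difference of 0.31 ± 0.10 (95% interval 0.09 to 0.52) had the lowest adjusted p of all Hox genes in limma, 0.119. Hoxc13, a gene of hair and nails, had 6.78, 6.32 and 6.52 in shRras2, against 6.96, 6.84 and 6.70 in pLKO, a difference of -0.30 ± 0.13 (adjusted p = 0.241). Hoxd11, which patterns the forearm together with Hoxa11, had 5.48, 5.14 and 5.59 in shRras2, against 5.19, 5.37 and 4.82 in pLKO, a difference of 0.28 ± 0.16 (adjusted p = 0.389). In both of these genes the groups overlapped. Hoxa11 and its overlapping antisense gene Hoxa11os had like differences, -0.23 ± 0.10 and -0.25 ± 0.10, with an adjusted p of 0.241 each in limma. Counting this pair, 23 members lay below background and outside the 3 largest differences, and they differed by -0.25 to 0.27. The other antisense gene, Hoxd3os1, differed by -0.10.

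No Hox gene passed the test: 0 of 35 in limma, where 5.21% of all genes passed. At an unadjusted p under 0.05 there were 7 (20.0%, against 19.1% of all genes). Hoxa3, Hoxa5, Hoxc6 and Hoxc8 were the higher ones in shRras2, and Hoxa11, Hoxa11os and Hoxc13 the lower. The groups did not overlap for 6 Hox genes (17.1%, against 25.5% of all genes), higher in shRras2 for Hoxa3, Hoxc6 and Hoxc8 and lower for Hoxb8, Hoxb9 and Hoxd8. Both shares were near or under those of all genes. A p that misses the threshold does not show that a gene did not change, and the intervals set the limit: the 95% intervals of all 35 genes lay between -0.58 and 0.67, that is folds of 0.669 to 1.59.

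By direction, 10 Hox genes were higher and 25 lower in shRras2 (71.4% lower, against 53.2% of all genes). Their median difference was -0.06, against -0.01 for all genes, and their single differences ran from -0.30 to 0.31. Of the 9 Hox genes above background in a group 5 were lower (55.6%), with a median of -0.008. Among all genes with a 6-array mean above background 55.3% were lower. These shares rest on unlike filters and cannot be compared directly. A Hox gene could enter through either group alone, as Hoxa5, a higher gene, did through shRras2. Of the 26 Hox genes above background in neither group 20 were lower (76.9%, against 53.2% of all genes at any level), with a median of -0.097. Among protein-coding members the medians were -0.05 for cluster A, -0.10 for cluster B (8 of 9 lower), -0.03 for cluster C and -0.06 for cluster D. By paralog number they were -0.08 for the anterior, -0.05 for the central and -0.06 for the posterior genes. One array bore on this shift. The median deviation of the 35 genes from their 6-array means was 0.015, -0.096 and 0.015 on shRras2 replicates 4, 5 and 6, against 0.002, 0.006 and 0.022 on the pLKO arrays. Without shRras2 replicate 5 the median difference was -0.03, against -0.06 with all arrays.

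**Figure D2:**
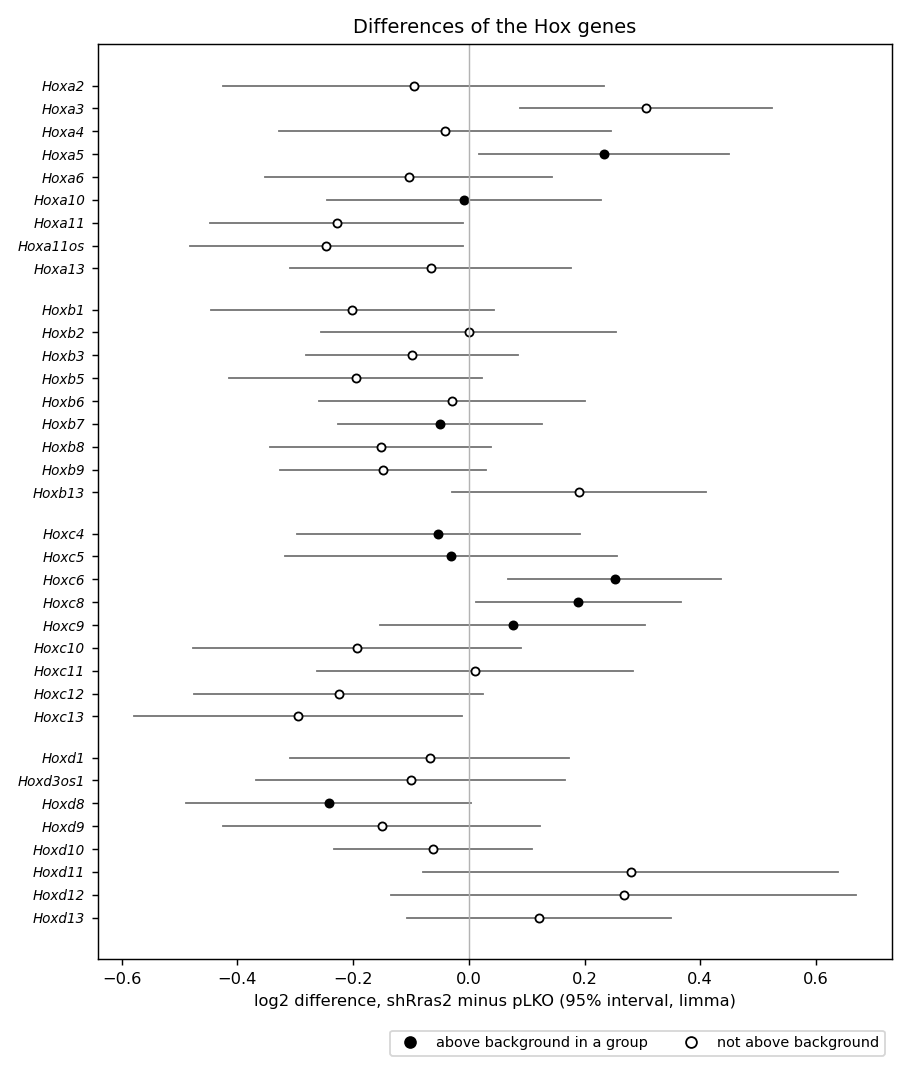
Log2 difference of every Hox gene, shRras2 minus pLKO, with its 95% interval from limma, by cluster and paralog number; filled points are genes above background in at least 1 group. All intervals lay between -0.58 and 0.67, with 10 differences above 0 and 25 below.

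The TALE-class cofactors, which bind DNA beside HOX proteins, gave no call. Of 10 measured, 8 were above background in each group, and the median difference was 0.03. In limma 0 passed, where 5.21% of all genes did. At an unadjusted p under 0.05 there was 1 of 10, Pbx4 (0.27 ± 0.10, below background in both groups), against 19.1% of all genes. Meis1 had signals of 9.86, 9.85 and 9.96 in shRras2, against 9.77, 9.69 and 9.77 in pLKO, a difference of 0.15 ± 0.08 (adjusted p = 0.349). The groups did not overlap for Meis1 and Pbx4, 2 of 10, where 25.5% of all genes did not overlap. Meis2 and Pbx3 each differed by 0.03 ± 0.09. None of these genes was called, so all lie outside the rule for naming genes.

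Chromatin regulators of Hox clusters gave 0 calls in limma, against 2 Polycomb and 1 Trithorax call with its trended and robust prior. Of 30 Polycomb genes, 23 in shRras2 and 22 in pLKO were above background, with a median of -0.03, 0 called and 7 of 30 at an unadjusted p under 0.05, where 19.1% of all genes were. Scmh1 came nearest (-0.36 ± 0.09, adjusted p = 0.061), and Ezh2, the histone methyltransferase of the complex, differed by 0.05 ± 0.08. Of 18 Trithorax genes and histone demethylases, 18 in shRras2 and 17 in pLKO were above background, with a median of -0.01, 0 called and 6 of 18 at an unadjusted p under 0.05, against the same 19.1% of all genes. Wdr5, a core subunit of the methyltransferase complexes, came nearest (-0.34 ± 0.08, adjusted p = 0.056). Scmh1 and Wdr5 were chosen after their values were seen.

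Genes of the retinoic acid pathway did differ. Of 18 measured, 4 were higher in shRras2 and 0 lower in limma (5.21% of all genes were called), with a median difference of 0.03, and 7 in shRras2 and 4 in pLKO were above background. Dhrs3, a retinaldehyde reductase that retinoic acid induces, had signals of 9.73, 8.77 and 9.49 in shRras2, against 7.49, 7.93 and 6.95 in pLKO. It rose by 1.87 ± 0.28 (adjusted p = 0.0079 in limma), with a pLKO mean of 7.46, under the background level. Rarb, a retinoic acid receptor whose own gene is a target of the pathway, had 8.30, 8.10 and 8.42 in shRras2, against 7.54, 7.52 and 7.37 in pLKO, a rise of 0.80 ± 0.10 (adjusted p = 0.0037). In both genes the groups did not overlap. The pLKO signals of Rarb were all under the background level, so its difference, like that of Dhrs3, can be understated.

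Crabp2, which carries retinoic acid to its receptors, had 8.54, 8.08 and 8.32 in shRras2, against 7.45, 7.80 and 7.45 in pLKO. It rose by 0.74 ± 0.14 (adjusted p = 0.0190 in limma), again with pLKO signals under the background level. Aldh1a1, a retinaldehyde dehydrogenase that makes retinoic acid, had 7.53, 7.10 and 7.80 in shRras2, against 6.13, 6.49 and 5.48 in pLKO. It rose by 1.44 ± 0.25 (adjusted p = 0.0141), with all 6 signals under the background level. Dhrs3 and Rarb passed whichever array was left out. Crabp2 lost its call without pLKO replicate 1 or 3 or shRras2 replicate 4 or 6 (adjusted p up to 0.0809), and Aldh1a1 lost its call without shRras2 replicate 4 (adjusted p = 0.0669) or 6 (adjusted p = 0.0609). Leaving out either of the last 2 arrays left 2 calls in the pathway, and leaving out shRras2 replicate 5 gave 5.

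**Figure D3:**
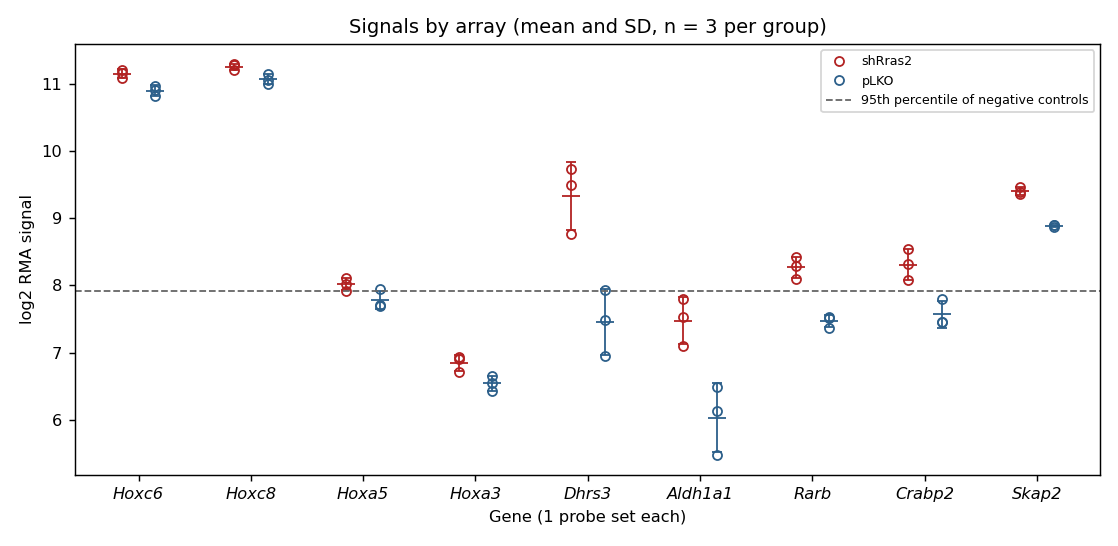
Log2 RMA signal of 4 Hox genes, the 4 called retinoic acid genes and Skap2 on each array, shRras2 left of pLKO, with group mean and SD (n = 3) and a dashed line at the background level of 7.92. Hoxc6, Hoxc8, Hoxa3 and the 5 genes at right were higher on every shRras2 array than on any pLKO array, while 1 pLKO array of Hoxa5 lay among the shRras2 arrays.

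Other members of the pathway did not pass in limma. Stra6, a retinol transporter, differed by 0.59 ± 0.15 (adjusted p = 0.062). Rdh10, which makes retinaldehyde, differed by -0.39 ± 0.12 (adjusted p = 0.116). The receptors Rara and Rarg differed by -0.11 and -0.06. Cyp26a1 differed by 0.22 ± 0.18, Cyp26b1 by 0.03, Cyp26c1 by -0.01 and Aldh1a2 by -0.02, all below background in both groups. Of the 18 genes of the pathway 10 had higher and 8 lower means in shRras2. The same arrays differed in skeletal muscle markers, with a median difference of 1.87. Of these 13 markers 9 were called higher and 0 lower in limma, against 2.99% and 2.22% of all genes. The 1 marker with a lower mean in shRras2 differed by -0.38 and did not pass, though its groups did not overlap. The median level of those 13 markers was 8.59, 7.87 and 8.62 on the shRras2 arrays, against 6.50, 6.37 and 6.66 on the pLKO arrays, and 8 were above background in shRras2 and 0 in pLKO. Of 12 fibroblast markers 8 had higher and 4 lower means in shRras2, with a median difference of 0.21. In limma 4 were called higher and 0 lower, against 2.99% and 2.22% of all genes. Those 4 calls became 0 to 2 without any single array other than shRras2 replicate 5. That array was nearest the pLKO arrays in the median of the muscle markers, in Dhrs3 and in Rras2. The part of the muscle markers in the retinoic acid values was not tested.

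Among upstream axial regulators 1 of 14 passed in limma, a share near the 5.21% of all genes. Egr2, also known as Krox20 and an activator of Hox genes in the hindbrain, averaged 9.28 ± 0.17 in shRras2 and 8.67 ± 0.10 in pLKO (SD, n = 3 each). It rose by 0.61 ± 0.11 (adjusted p = 0.0144), a call lost without pLKO replicate 1 or shRras2 replicate 4 or 6 (adjusted p up to 0.0663). Cdx1, Cdx2 and Cdx4, the caudal-type activators of Hox genes, were below background in both groups and did not pass.

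Of 49 other positional homeobox, forkhead and T-box factors 3 were higher and 3 lower in shRras2 in limma, where 2.99% of all genes were higher and 2.22% lower, with a median difference of -0.01. Irx3, a neural and limb patterning factor, averaged 10.20 ± 0.14 in shRras2 and 9.63 ± 0.13 in pLKO and rose by 0.57 ± 0.10 (adjusted p = 0.0168). Prrx2, a limb mesenchyme factor, averaged 10.26 ± 0.02 in shRras2 and 9.78 ± 0.07 in pLKO and rose by 0.48 ± 0.08 (adjusted p = 0.010). Foxc2, a factor of paraxial mesoderm and lymph vessels, averaged 9.40 ± 0.10 in shRras2 and 9.87 ± 0.13 in pLKO and fell by 0.46 ± 0.10 (adjusted p = 0.0280). Foxf1 (0.42 ± 0.08, adjusted p = 0.0232) and Tbx20 (-0.40 ± 0.08, adjusted p = 0.0256) were below background in both groups. Msx2 was lower too (-0.35 ± 0.08, adjusted p = 0.0408) and is named after its value was seen. Of these 6 genes, Prrx2 alone passed whichever array was left out. Leaving out an array gave adjusted p values up to 0.0698 for Irx3, 0.107 for Foxc2, 0.0908 for Foxf1, 0.101 for Tbx20 and 0.136 for Msx2. Of the 6 calls, 4 were left without shRras2 replicate 5 and 1 or 2 without any one of the other arrays.

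Of 26 genes that flank the clusters 2 were higher and 0 lower in limma, a share near the 5.21% of all genes called, with a median of -0.01. Skap2, an adaptor protein gene with 0 protein-coding genes between it and cluster A, had signals of 9.47, 9.36 and 9.38 in shRras2, against 8.87, 8.90 and 8.89 in pLKO. The groups did not overlap, and it rose by 0.51 ± 0.07 (adjusted p = 0.0067), whichever array was left out. Nfe2l1, a transcription factor gene with 3 protein-coding genes between it and cluster B, averaged 12.09 ± 0.08 in shRras2 and 11.72 ± 0.03 in pLKO. It rose by 0.38 ± 0.08 (adjusted p = 0.0296), and lost its call without any single array other than shRras2 replicate 5 (adjusted p up to 0.109). The Hox genes of clusters A and B gave no call beside these neighbours.

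**Figure D4:**
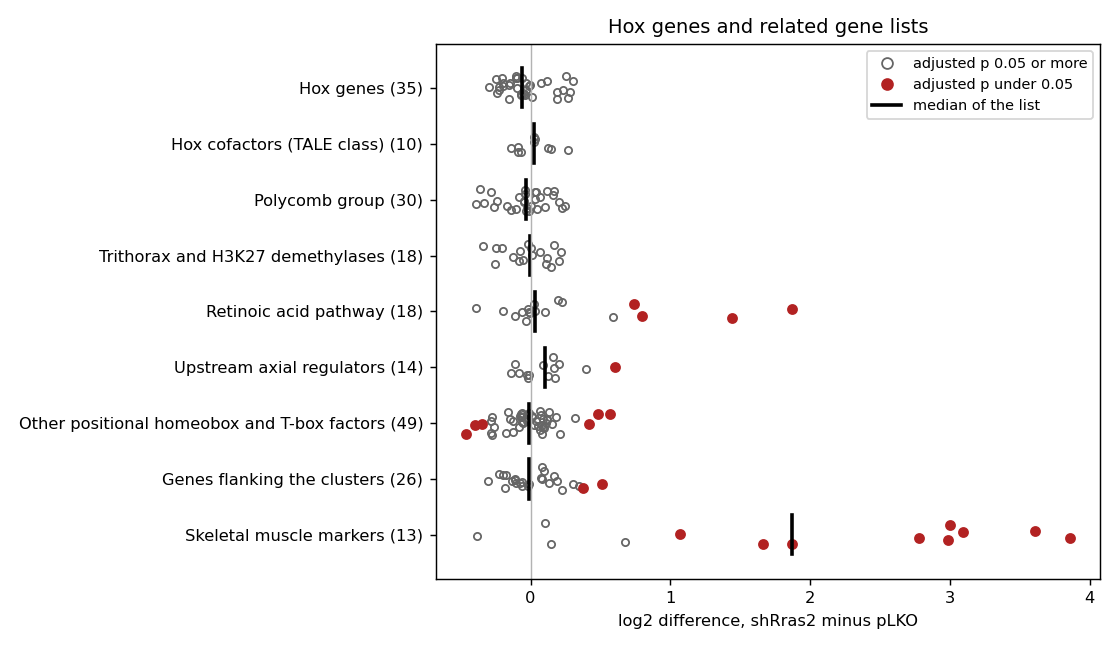
Log2 difference, shRras2 minus pLKO, of each gene in the Hox set, in 7 related lists and in the skeletal muscle markers, 1 row per list, with a bar at the median and filled points for genes with an adjusted p under 0.05 in limma. The Hox row lay between -0.30 and 0.31 with 0 calls, while the retinoic acid row held 4 calls, all above 0, and the skeletal muscle row 9.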

How the data were processed

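Total RNA of 6 samples was labelled with biotin and hybridised to Affymetrix arrays, 1 per sample, per the labels' protocols. For each probe set the authors deposited a log2 signal. It came from RMA run in R 3.6.3, according to the submitters' processing notes, a method that subtracts background, brings the arrays to a common distribution and combines a probe set's probes into 1 value. For the RMA package and the genome build, the version is not given in the sources used here. The table held 29129 probe sets, of which 22206 were transcript probe sets and 19572 had 1 gene symbol in the platform annotation. For 55 genes with several probe sets the brightest was kept, which left 19505 genes.

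In R 4.3.3, limma 3.58.1 was fitted across all genes and all 6 arrays by lmFit and eBayes, without covariates. Its two-sided p-values were adjusted by Benjamini-Hochberg over the 19505 genes, and 0.05 was the threshold. The same code was tested on simulated data. Errors of differences are SEs and errors of levels are SDs over 3 arrays. The number of arrays limits the precision, with a median SE of 0.096. Levels of different probe sets were set only against the background level.

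Named with values were the Hox genes above background in either group and those with the 3 largest differences, and from each related list up to 4 called genes with the largest changes and up to 2 going the other way. The members and lists were chosen with earlier results of these data known. Promoter sequences are RefSeq's (GRCm38.p6). Alternatives covered normalization, a filter on the dimmest 30% of genes, probe set rules, the eBayes prior, array weights, each array left out and other background levels.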

Additional observations from a re-analysis of the deposited data

How the results depend on the processing

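No paired analysis was possible because the groups share no replicate number. The number of genes called, 1017, was 1908 with a trended and robust prior and 392 to 1136 with 1 array left out. The Hox count of 0 became 1 (Hoxc6) with that prior and stayed at 0 under the other settings and with any array left out. The 13 calls in the related lists became 4 to 13, and the 4 retinoic acid calls 2 to 5, with 1 array left out. The 9 Hox genes above background became 15 at the 90th percentile of the negative controls, 2 at the 99th, 15 at the median of all genes and 5 at the highest GC-grouped background probe set, a level added after seeing the data. The median Hox difference of -0.06 lay between -0.10 and -0.05 under the other settings and between -0.09 and -0.03 with 1 array left out. Small differences turned sign, to 0.0078 for Hoxa10 with cyclic loess and to 0.014 for Hoxc5 with array weights. With 1 array left out the differences were -0.095 to 0.089 for Hoxa10, -0.13 to 0.039 for Hoxc4, -0.11 to 0.10 for Hoxc5 and -0.015 to 0.13 for Hoxc9. Dhrs3 missed the threshold with the trended and robust prior (adjusted p = 0.0577). The other named genes of the related lists kept their calls in all 8 settings that used every array. After the dimmest 30% of genes were left out, 26 of the 35 Hox genes remained. The cause of these changes was not tested. Signals near background are compressed, which limits what can be seen for 26 of the 35 Hox genes.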
